A study of Mus musculus with 10 samples.

Results

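Mitochondrial complex I was examined through 35 nuclear genes that encode its subunits, chosen by name (Ndufa, Ndufb, Ndufc, Ndufab1, Ndufs and Ndufv genes) without use of their measured values. Of these, 33 had at least 1 probe set annotated to that gene alone (75 probe sets in all), and 32 of the 11871 genes tested were subunits. The series holds cochlear RNA on 10 Affymetrix arrays, 5 labelled D257A and 5 labelled WT. The D257A samples came from male mice with the Polg genotype PolgD257A/D257A at 9 months of age, and the WT samples from male Polg+/+ mice of the same age. All mice were kept in one specific pathogen-free facility. The mutation is germline and so is not restricted to cells of the ear, and the labels give neither the strain background nor whether a sample pooled animals. The study asked which cochlear transcripts differ when mutations accumulate in mitochondrial DNA, since the D257A form of the DNA polymerase gamma lacks proofreading. The design text counts 5 samples a group and states that replicates were not run, without saying of what kind, and no label says that the samples are separate animals, so p-values measure only the spread between these samples.

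Complex I, NADH:ubiquinone oxidoreductase, takes electrons from NADH, passes them through a flavin and a chain of iron-sulfur clusters to ubiquinone, and pumps protons out of the mitochondrial matrix. Its peripheral arm lies in the matrix and is built from the N module, which binds NADH, and the Q module, which reduces ubiquinone; its membrane arm is built around subunits encoded by mitochondrial DNA, after which the ND1, ND2, ND4 and ND5 modules are named. A few nuclear subunits are catalytic core proteins shared with bacteria, and the rest are accessory proteins needed for assembly or stability. Because the mouse mutation acts on mitochondrial DNA, the complex joins products of the mutated genome with products of these nuclear genes.

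The promoter windows of the subunits are shown for the motifs of factors known to act on nuclear genes of respiration. Windows from 250 bases before to 50 bases after the gene start, taken from RefSeq on build GRCm38.p6, were found for 32 of the 35 subunits, and were searched on both strands for GCGCANGCG (a core of the NRF-1 motif), CCGGAAG (an ETS-type motif, as bound by GABP) and AAGATGGCG (a core of the YY1 motif). The YY1 letters were present in 5 of 32 subunit windows (15.6%, against 1.64% of the windows of 27025 genes), the NRF-1 letters in 8 (25% against 7.03%) and the ETS letters in 4 (12.5% against 9.93%). At least 1 of the 3 stood in 16 windows (50% against 16.5%), and Ndufs6 alone held the letters of both NRF-1 and YY1. The 5 YY1 matches are printed because they include Ndufa9 and Ndufs4, the 2 subunits with the smallest p-values below; capitals mark the matched letters, read along the gene's own strand.
Ndufa9: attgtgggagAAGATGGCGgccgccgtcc
Ndufc1: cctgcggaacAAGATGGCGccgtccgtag
Ndufs4: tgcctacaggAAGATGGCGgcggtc
Ndufs6: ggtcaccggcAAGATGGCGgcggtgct
Ndufs7: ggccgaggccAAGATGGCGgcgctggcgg
All 5 matches began after the gene start, at base 30 for Ndufa9 (chr6:126849097-126849125, minus strand), base 23 for Ndufc1 (chr3:51408915-51408943, minus strand), base 36 for Ndufs4 (chr13:114388045-114388069, minus strand), base 34 for Ndufs6 (chr13:73328433-73328459, minus strand) and base 25 for Ndufs7 (chr10:80249463-80249491, plus strand), counting the start as base 1. The NRF-1 matches are shown for the 5 of their 8 genes that were tested on the arrays, to show how far their places vary.
Ndufa5: tgtgtgagctGCGCAGGCGcaaatctacc
Ndufa6: cgtggcaccgCGCGTGCGCacgctgaagg
Ndufa8: tagagcagtgCGCTTGCGCgtcgctggag
Ndufb10: tcacctttctGCGCAGGCGtagaggtccc
Ndufs5: gctgcttgctGCGCAGGCGcagacccgct
The first matched base lay at -190 for Ndufa5 (chr6:24527698-24527726, minus strand), 25 for Ndufa6 (chr15:82354249-82354277, minus strand), -29 for Ndufa8 (chr2:36049349-36049377, minus strand), -2 for Ndufb10 (chr17:24724407-24724435, minus strand) and -98 for Ndufs5 (chr4:123718266-123718294, minus strand); for Ndufa6 and Ndufa8 the capitals are the motif's reverse complement. The Ndufa8 window held 2 matches, of which the one farther upstream is printed. A match is a description of letters and was not tied to any difference between the groups. The YY1 letters contain ATG, and whether this ATG begins the coding sequence in the 5 matches was not examined. Genes with the YY1 letters went both ways by their brightest probe sets. Log2 fold changes of D257A over WT were -0.89 for Ndufa9 and -0.37 for Ndufs4, against 0.24 for Ndufc1 and 0.18 for Ndufs7. Ndufs6, measured only together with Ndufs6b, had 0.05.

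The arrays had been scaled by the authors to nearly equal trimmed means (1494 to 1496), and 2 of them stood apart. D257A replicate 2 had a mean correlation of 0.89 with its own group and WT replicate 3 one of 0.914, against 0.906 to 0.921 for the other D257A arrays and 0.933 to 0.94 for the other WT arrays. Markers of the labelled tissue were present: Coch, the gene of cochlin in the spiral ligament, measured 68700 ± 8933 in D257A and 74290 ± 6934 in WT (SD, n = 5 each), and Otos 43040 ± 12990 in D257A and 49880 ± 6024 in WT. Of 17 cochlear markers listed, 14 were tested and none was called. The bulk tissue also held skeletal muscle RNA, and less of it in D257A: all 23 tested muscle markers had negative log2 fold changes, 12 were called lower, and their summed signal was 29270 to 364100 in D257A against 266800 to 782300 in WT. Pvalb was among the 23, and whether all of its signal came from muscle was not tested. In bulk tissue, fewer cells of a type and less RNA per cell cannot be told apart. The part of muscle RNA in the values below, Ndufa9 included, was not tested. With 5 arrays a group, precision is limited by their number.

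None of the 32 tested subunits was called in either direction at an adjusted p of 0.05 (limma), where 2.32% of all genes tested were called; 2 subunits, Ndufa9 and Ndufs4, had an unadjusted p under 0.05, against 16.7% of all genes. Both were lower in D257A by more than 1.1-fold, as were 10.2% of all genes at that unadjusted p. Log2 fold changes of D257A over WT were positive for 23 subunits and negative for 9, with a median of 0.16 and a range of -0.89 to 0.37. Over all 11871 genes the median was -0.02 and 47.1% were positive, and over the 1500 genes at least as bright as the dimmest tested subunit the median was 0.02 and 53.4% were positive. No subunit had groups that did not overlap, where 5.29% of all genes did. The smallest adjusted p among subunits was 0.209. With each array centred on its median signal, the median of all genes moved to -0.12 and that of the subunits to 0.06, with 19 of 32 positive.

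**Figure D1:**
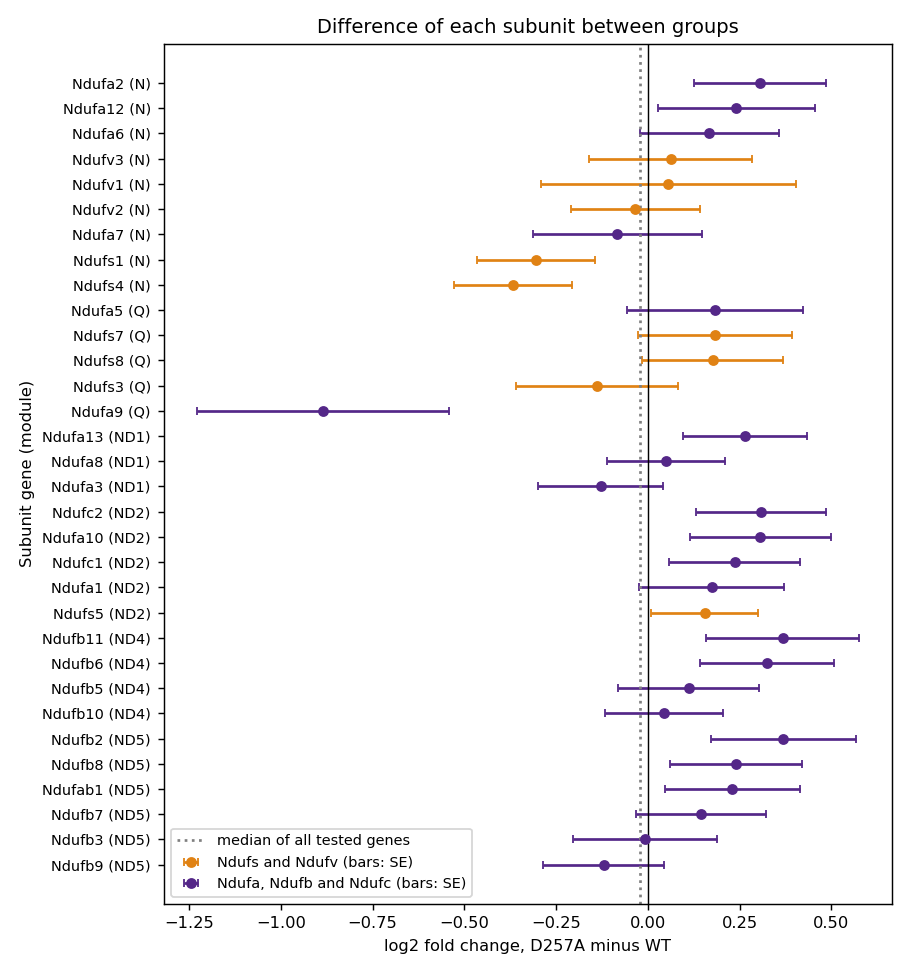
Log2 fold change of each tested subunit, D257A minus WT (horizontal axis), with its standard error, ordered by module and coloured by symbol class; the dotted line is the median of all tested genes. Most points lie between 0 and 0.37, and Ndufa9 lies apart at -0.89.

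Ndufa9, an accessory subunit where the Q module meets the membrane arm, had the largest difference of the subunits and the smallest p. Its signal was 10059.9, 3852.2, 10045.3, 3259.9 and 3973.8 in D257A replicates 1 to 5, against 12809.1, 10536, 6054.8, 10575.2 and 12666.7 in WT replicates 1 to 5. D257A replicates 2, 4 and 5 lay below every WT array, while D257A replicates 1 and 3 lay within the WT range. The means were 6238 ± 3492 in D257A and 10530 ± 2729 in WT (SD, n = 5 each), a log2 fold change of -0.89 (SE 0.34, limma adjusted p = 0.209, unadjusted p = 0.0234). The summed signal of the 23 muscle markers was 68840, 182900, 73690, 29270 and 364100 in D257A replicates 1 to 5, against 782300, 561600, 266800, 517000 and 663300 in WT replicates 1 to 5. Of these sums, Pvalb alone gave 30026.3, 19514, 26413.7, 14972.3 and 17508.9 in D257A replicates 1 to 5. The lowest D257A sums thus rested to a large part on 1 gene, whose source in the tissue was not tested. In WT, replicate 3 was lowest and replicates 1 and 5 were highest for both the muscle sum and Ndufa9; in D257A, replicate 4 was lowest for both, and replicate 5 had the highest muscle sum while replicates 1 and 3 had the highest Ndufa9. Only 1 probe set represented Ndufa9, so no second one could be set beside it.

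Ndufs4 and Ndufs1, both of the N module, were the next subunits with lower means in D257A. Ndufs4 is an accessory subunit whose loss in mice causes a Leigh-like encephalopathy, and Ndufs1 is the large core protein that holds several iron-sulfur clusters. Ndufs4 measured 8513.8, 6667.3, 6570.4, 5735.3 and 5319.8 in D257A, against 9886.5, 8126.4, 7555, 7612.3 and 8832.2 in WT. Of the D257A arrays, 4 lay below all WT arrays, and D257A replicate 1 lay within the WT range. The log2 fold change was -0.37 (SE 0.16, limma adjusted p = 0.265). Ndufs1 measured 8472, 8454.9, 6808, 6504.3 and 6496.5 in D257A, against 11061.9, 9616.6, 9274.4, 8496.6 and 7079.8 in WT. D257A replicates 3, 4 and 5 lay below every WT array, with a log2 fold change of -0.30 (SE 0.16, adjusted p = 0.362).

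**Figure D2:**
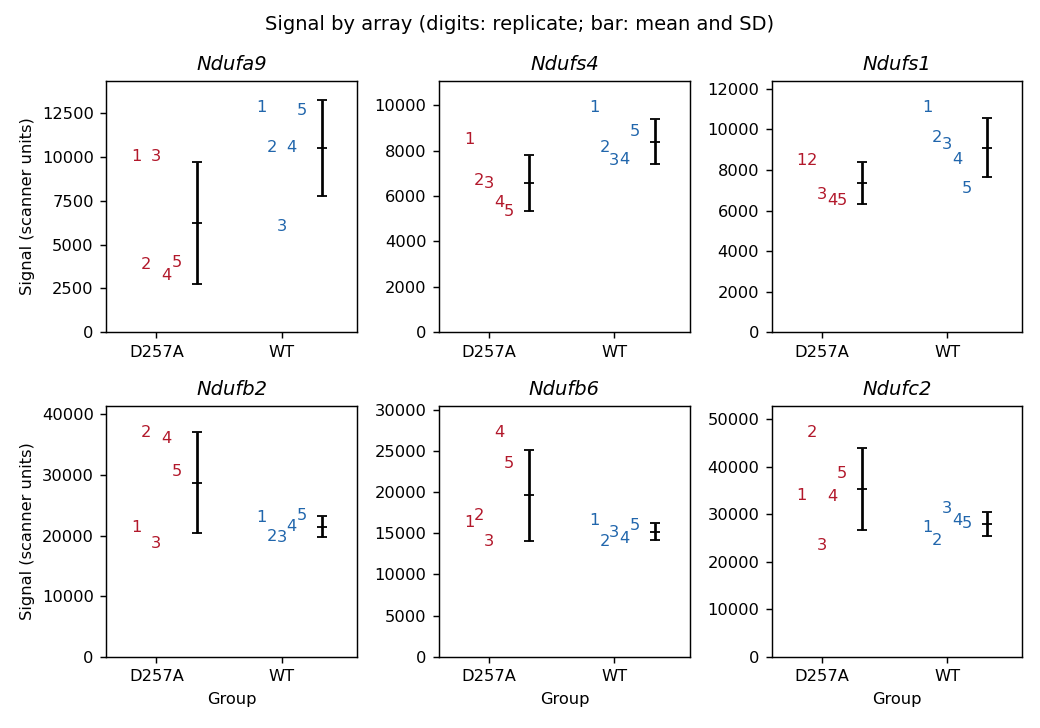
Array signal (linear scanner units, from 0) of 6 subunits, with D257A left and WT right in each panel; digits give the replicate number of each array, and the bar the mean and SD of 5 arrays. The groups overlap in each panel, Ndufa9 splits within D257A into replicates 1 and 3 and replicates 2, 4 and 5, and D257A replicate 3 is the lowest of its group for Ndufb2, Ndufb6 and Ndufc2.

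The other N-module subunits were divided in sign. The 9 tested N-module genes had 5 positive and 4 negative values, with a median of 0.06. Ndufv1, which binds the flavin and NADH, measured 10319.9, 5415.3, 11748.1, 19916.8 and 22385.9 in D257A, against 15102.8, 13161, 7353.1, 10878.3 and 15179 in WT, so that D257A arrays lay both above and below the whole WT range (log2 fold change 0.06, SE 0.35). Ndufv2, the neighbouring iron-sulfur subunit, had 20960 ± 4588 in D257A and 21200 ± 2970 in WT. Ndufv3, an accessory subunit beside the flavoprotein, had 22379.1, 43326.6, 16943.4, 21559.1 and 29401.6 in D257A, against 23917.2, 21822.3, 30044, 22328.5 and 23990.8 in WT, and the highest array of each group was the one that stood apart. Ndufa2, a small thioredoxin-fold accessory subunit, had the highest fold change of the module: 17482.6, 22638.9, 13434.2, 16104.1 and 19697.5 in D257A, against 16947.7, 12779.6, 17148.8, 10953.7 and 14310.6 in WT (log2 fold change 0.31, SE 0.18, adjusted p = 0.417). Ndufa6, Ndufa7 and Ndufa12, accessory subunits of the peripheral arm, had values of 0.17, -0.08 and 0.24.

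In the Q module, the nuclear core proteins did not differ beyond the spread of the arrays. Ndufs7 and Ndufs8, which carry the clusters nearest to ubiquinone, had log2 fold changes of 0.18 each (SE 0.21 and 0.19), and Ndufs3 one of -0.14 (SE 0.22). Ndufs8 measured 22350 ± 5296 in D257A and 19430 ± 2873 in WT (SD, n = 5 each). Ndufa5, an accessory subunit of the same module, measured 16680 ± 5716 in D257A and 14500 ± 3951 in WT, with 26098.3 in D257A replicate 2 alone above the WT range.

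The membrane arm leaned further to positive values than the peripheral arm. Of its 18 tested subunits 15 were positive, with a median of 0.20, while 8 of the 14 in the matrix arm were positive, with a median of 0.06. This difference was described and not tested, and it was read from the brightest probe set of each gene. The median centred log2 signal of the membrane arm was -0.02, 0.41, -0.33, 0.26 and 0.27 in D257A replicates 1 to 5. It was 0.08, -0.18, -0.06, -0.18 and -0.05 in WT replicates 1 to 5. For the matrix arm the values were 0.03, -0.04, -0.30, 0.10 and 0.28 in D257A, and 0.23, 0.003, -0.11, -0.12 and 0.005 in WT. Within D257A the arms lay furthest apart on replicate 2, an array that stood apart. Tested probe sets of 6 subunits differed in sign, as given below. All 5 tested ND2-module subunits were positive (median 0.24), all 4 of the ND4 module (0.22), 4 of 6 in the ND5 module (0.19) and 2 of 3 in the ND1 module (0.05). Ndufc2, an ND2-module accessory subunit needed early in assembly, measured 33982.7, 47151.2, 23357.7, 33632.2 and 38623.4 in D257A, against 27175.7, 24415.8, 31251.8, 28661.3 and 28042.8 in WT. In D257A, 4 arrays lay above every WT array and replicate 3 lay below all of them, which gave a log2 fold change of 0.31 (SE 0.18, adjusted p = 0.401). Ndufa13, also known as GRIM-19, showed the same arrangement: 39569.8, 48869.1, 25318.2, 36102.2 and 40080.3 in D257A, against 33078.9, 28394.2, 32733.6, 28053.6 and 32750.2 in WT (log2 fold change 0.27, SE 0.17, adjusted p = 0.459).

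Ndufb2, Ndufb6 and Ndufb11 are small accessory subunits of the distal membrane arm. Ndufb2 measured 21314.7, 37009.9, 18711.9, 35998.2 and 30661.7 in D257A, against 23051.8, 19923.2, 19667.1, 21531 and 23317.2 in WT (log2 fold change 0.37, SE 0.20, adjusted p = 0.37). Ndufb6 measured 16283, 17119.6, 13969.7, 27234 and 23458.6 in D257A, against 16568.9, 14043.5, 15124.4, 14421.1 and 15897.4 in WT (log2 fold change 0.32, SE 0.18, adjusted p = 0.396). For both genes 3 D257A arrays lay above the WT range and D257A replicate 3 lay below it. Ndufb11, which is X-linked, measured 36751.3, 56195.3, 23781.9, 34099.7 and 39781.1 in D257A, against 31084.8, 25403.5, 36500.5, 25248.6 and 25623 in WT (log2 fold change 0.37, SE 0.21, adjusted p = 0.399). Ndufa10, of the ND2 module and related to nucleoside kinases, measured 11486, 16854.5, 10500.4, 13250.8 and 11309.6 in D257A, against 13404.9, 10179.5, 6973.5, 10173.5 and 10868.1 in WT. Only D257A replicate 2 lay above its WT range (log2 fold change 0.31, SE 0.19, adjusted p = 0.45). Ndufa1, an X-linked subunit of the ND2 module, measured 39371.1, 64679.9, 30661.2, 34462.4 and 42791.3 in D257A, against 36234.9, 30519.1, 46912.2, 34752.4 and 35001.5 in WT, again with only D257A replicate 2 above the WT range (log2 fold change 0.17, SE 0.20).

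The subunits without a clean probe set were read only with their near copies. The own probe set of Ndufb4 was dim, 288.1 to 718.7 in D257A and 302.4 to 578 in WT, and was not tested. A bright probe set shared with Ndufb4b and Ndufb4c had 16810.2 to 32285.4 in D257A and 15506.2 to 22134.4 in WT (log2 fold change 0.23). Ndufs6 was measured only together with Ndufs6b (log2 fold change 0.05). Ndufa11 was measured only with Ndufa11b: 12838, 10834.8, 15580.7, 18637.2 and 20294.6 in D257A, against 9782.3, 8772.9, 12541.9, 9156.8 and 11163.7 in WT, a log2 fold change of 0.58 in which D257A replicate 2 lay within the WT range (adjusted p = 0.161 when limma was run on all probe sets, dim ones included). These values cannot be assigned to 1 gene.

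Ndufs and Ndufv genes were set beside the other subunits. The 9 tested Ndufs and Ndufv genes had 5 positive values and a median of 0.06, and the 23 other subunits had 18 positive values and a median of 0.18. Symbols do not match structure throughout, since Ndufs4, Ndufs5, Ndufs6 and Ndufv3 are accessory proteins. The 6 tested core proteins (Ndufv1, Ndufv2, Ndufs1, Ndufs3, Ndufs7 and Ndufs8) had 3 positive values and a median of 0.01, and the 26 tested accessory ones had 20 positive values and a median of 0.17. These counts and medians read each gene from its brightest probe set only. Other tested probe sets had 0.31 and 0.38 for Ndufv1, and 0.46 and 0.30 for Ndufv2. Of all subunits, 4 had a negative brightest probe set and another tested one that was positive, and 2 had the reverse. By array, the median centred log2 signal of Ndufs and Ndufv genes minus that of the others was -0.02, -0.61, 0.08, 0.08 and -0.12 in D257A replicates 1 to 5, against 0.20, 0.27, -0.22, 0.08 and 0.07 in WT replicates 1 to 5. The lowest value in each group belonged to the array that stood apart. Without those 2 arrays the medians were 0.01 for Ndufs and Ndufv genes and 0.14 for the others. Without D257A replicate 4 they were -0.115 and 0.16, and with arrays centred on the median -0.04 and 0.08.

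**Figure D3:**
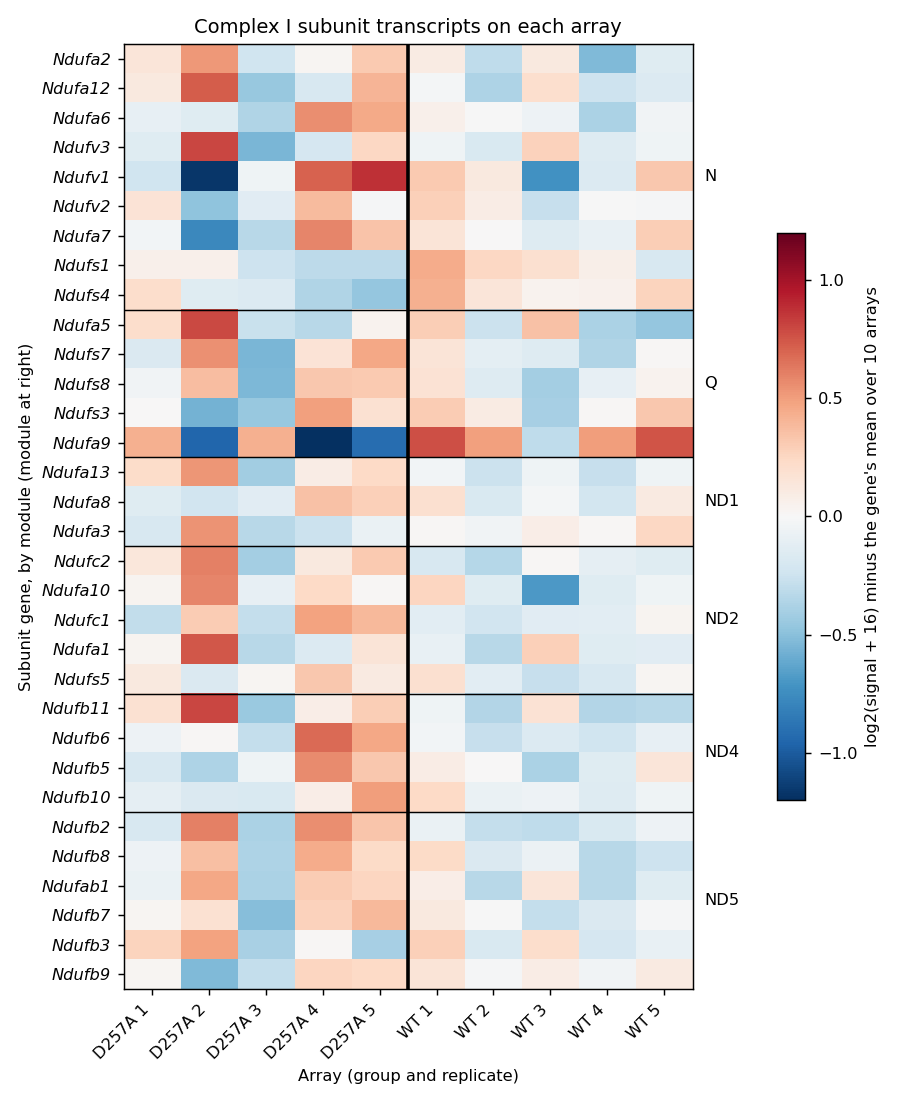
Each row is a tested subunit, grouped by module, and each column an array, with D257A left of WT; colour gives log2(signal + 16) minus the gene's mean over the 10 arrays. D257A replicate 3 is blue in most rows, D257A replicate 2 holds strong red and strong blue cells, D257A replicates 4 and 5 are red in most rows, and most WT cells are paler.

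Subunit signals varied more among D257A arrays than among WT arrays. The SD of log2 signals was larger in D257A for 29 of 32 subunits (90.6%), with a median of 0.38 in D257A and 0.20 in WT. The same was so for 67.1% of all tested genes and for 74.2% of the 1500 genes at least as bright. D257A replicate 3 had the lowest of all 10 values for 14 subunits and lay below every WT array for 21. D257A replicates 4 and 5 each lay above every WT array for 19 subunits. D257A replicate 2 lay above the WT range for 19 and below it for 9, so its departures ran both ways. These counts by array are given without the share over all genes, so they cannot be read as particular to the subunits. The median centred log2 signal of all tested subunits was 0.01, 0.33, -0.33, 0.25 and 0.27 in D257A replicates 1 to 5, against 0.15, -0.15, -0.06, -0.16 and -0.04 in WT replicates 1 to 5.

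The 2 arrays that stood apart departed from their groups in a like order over the subunits. Relative to the median of the other D257A arrays, D257A replicate 2 ranged from -1.50 for Ndufv1 to 0.98 for Ndufv3 on the log2 scale. Relative to the other WT arrays, WT replicate 3 had -0.94 for Ndufv1 and 0.38 for Ndufv3. Ndufs3 (-0.66 in D257A replicate 2 and -0.60 in WT replicate 3) and Ndufa9 (-0.71 and -0.93 in the same 2 arrays) were low on both, while Ndufa5 (0.91 and 0.67) and Ndufa1 (0.81 and 0.43) were high on both. Ndufa10 went opposite ways (0.56 and -0.59). Across the 32 subunits, which are not independent replicates, Pearson's r between these departures was 0.73 and Spearman's rho 0.721; across all 11871 genes r was 0.553, and across the 1500 bright ones 0.632. The shared order was thus not limited to the subunits.

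**Figure D4:**
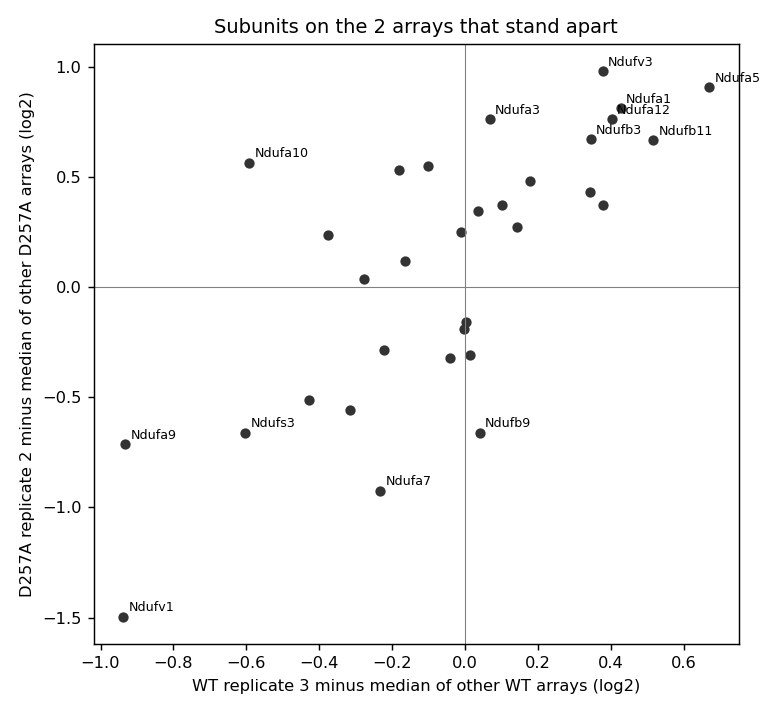
Each point is a tested subunit; the vertical axis is D257A replicate 2 minus the median of the other D257A arrays and the horizontal axis WT replicate 3 minus the median of the other WT arrays, both in log2 units. Ndufv1 lies lowest on both axes, and Ndufv3, Ndufa5 and Ndufa1 lie high on both.

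Probe sets of the same subunit could depart in opposite directions on D257A replicate 2. Of 19 subunits with more than 1 tested probe set, 13 had probe sets both above and below the median of the other D257A arrays there. Departures of any size were counted, such as 0.04 for the only Ndufa7 probe set above that median. The count was not made for other arrays or for all genes. It cannot be read as particular to this array or to the subunits. For Ndufv1 the brightest probe set read 5415.3 on that array, and the other ones read 15470.3 and 14943, against 8998.7 to 18356.8 and 8448 to 20294.5 for these on the other D257A arrays. Their log2 fold changes were 0.06, 0.31 and 0.38. For Ndufb9, a subunit of the ND5 module, the brightest probe set read 22659.7 on D257A replicate 2 and the other tested one 45374.2, the lowest and the highest of all 10 arrays.

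Between the groups, 6 of the 19 subunits had tested probe sets of opposite sign. These were Ndufa7, Ndufb9, Ndufs4, Ndufs7, Ndufs8 and Ndufv2. Of all 65 tested subunit probe sets, 52 (80%) were positive, against 49.9% of all tested probe sets, and 6 had an unadjusted p under 0.05, where 16.9% of all probe sets did. Those were the single probe set of Ndufa9, the brightest of Ndufs4 and a dimmer one each of Ndufa10, Ndufb2, Ndufc1 and Ndufv2. The dimmer Ndufc1 probe set had the smallest p of the subunit probe sets: 11121, 13997.1, 8514.7, 10485.3 and 12155.1 in D257A, against 9140.5, 7162.7, 4788.2, 6581.8 and 6397.3 in WT (log2 fold change 0.73, SE 0.19, adjusted p = 0.068). In D257A, 4 arrays lay above all WT arrays, and replicate 3 stood between WT replicates 2 and 1. The brighter Ndufc1 probe set had a log2 fold change of 0.24. For Ndufs4, the values were -0.37 and -0.31 for the brighter probe sets and 0.33 for the dimmest tested one, so its difference depends on the probe set read. For Ndufv2 they were -0.03 for the brightest and 0.46 and 0.30 for the others.

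**Figure D5:**
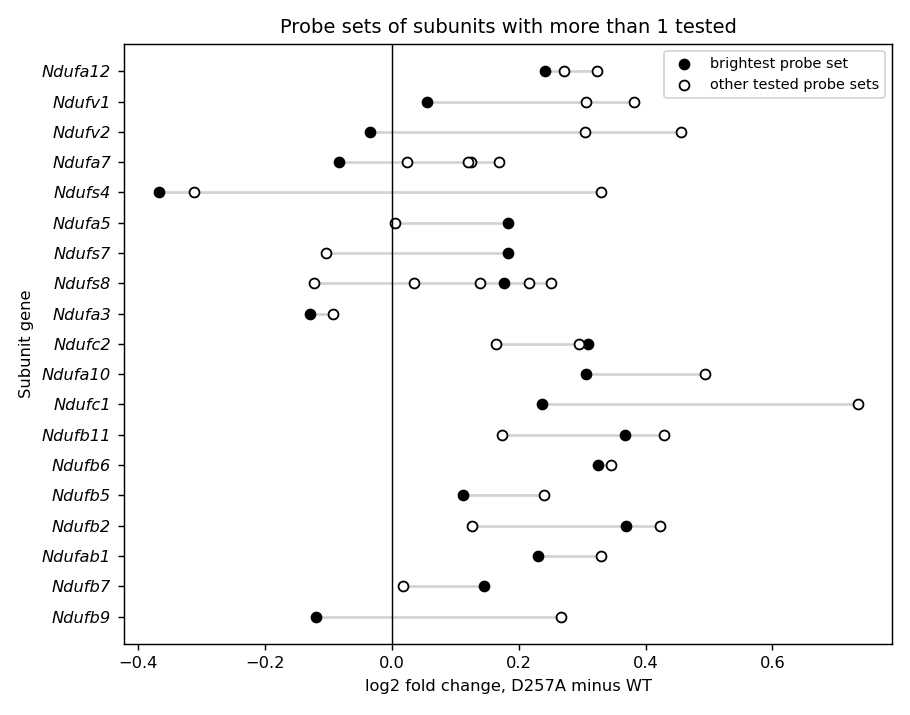
Log2 fold changes (D257A minus WT) of every tested probe set of the subunits with more than 1; filled points are the brightest probe set of a gene. The grey line crosses 0 for 6 subunits, and the widest spans are those of Ndufs4 and Ndufc1.

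Other genes of the complex and its neighbours were read from fixed lists. Of 18 assembly factors, 17 were tested, 8 were positive, none was called and the median was -0.04. Tmem186, a factor of the assembly intermediate that builds the membrane arm, had the smallest p: 1663.2, 1702.2, 1497.4, 1766.6 and 1782.3 in D257A, against 749, 1214.6, 1228.3, 867.5 and 1072.9 in WT. Its groups did not overlap, and its log2 fold change was 0.73 (SE 0.18, limma adjusted p = 0.0529). Acad9, an acyl-CoA dehydrogenase that also serves assembly, had 1055 ± 219.6 in D257A and 1435 ± 266.5 in WT (adjusted p = 0.288), and Ndufaf5, which modifies Ndufs7, had 2619 ± 479.9 in D257A and 1947 ± 479.5 in WT (adjusted p = 0.29). ND5, a proton-pumping subunit that mitochondrial DNA encodes, measured 78836.5, 90809.1, 52864.7, 53895.9 and 63516.5 in D257A, against 59318.5, 68302.6, 68557.7, 81053.4 and 52862.2 in WT (log2 fold change 0.02, SE 0.18, adjusted p = 0.965). No other subunit encoded by mitochondrial DNA was tested. The nuclear subunits of complexes II and III had 7 of 13 positive with a median of 0.03. The complex V genes, which include the inhibitor Atpif1, had 12 of 16 positive with a median of 0.10. None of them was called. The gene with the smallest p of each complex was lower in D257A. Atp5o of complex V had a log2 fold change of -0.52 (adjusted p = 0.291), Uqcrh of complex III one of -0.50 (adjusted p = 0.232) and Sdha of complex II one of -0.34 (adjusted p = 0.298). Next by p in complex V were 2 genes with higher means in D257A, Atpif1 (0.36, adjusted p = 0.371) and Atp5k (0.46, adjusted p = 0.377).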

How the data were processed

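The deposited values are linear array intensity, 1 per probe set and array, made by the authors in GCOS 1.3 according to the submitters' processing notes. How background was corrected and probes were summarised is not given in the sources used here. Of 45037 probe sets without controls, 34945 had 1 gene in the platform annotation. Signals were taken as log2(signal + 16), so fold changes of dim genes are understated, and the fraction 0.5 with the higher mean (22518 probe sets, from a signal of about 577) went into a limma 3.58.1 fit under R 4.3.3 (group as the only term, intensity trend, 8 residual degrees of freedom, two-sided, Benjamini-Hochberg adjustment over all probe sets at 0.05). A gene was read from its brightest probe set. Values on every array are given for the 10 subunits with the smallest p, for the brightest or dimmest of a class and for some others chosen after their values were seen. No batch was tested, because neither scan dates nor detection calls were analysed here. Subunits, modules and lists came from textbook knowledge and were chosen with earlier results of these data known. The NRF-1 letters replaced a form 1 base longer after that form's counts, which were lower, had been seen. The scripts were tested on simulated data. Alternatives were other pseudocounts, scalings, filters, variance models, thresholds, the replicate number as a block, left-out arrays and the mean over probe sets.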

Additional observations from a re-analysis of the deposited data

Results flagged for a closer look

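Single arrays far from the other 4 of their group were found for 3 of 64 sets of 5 values (32 subunits in 2 groups, gap over range above 0.71), where chance gives about 1 in 20. Ndufa3, an ND1-module accessory subunit, read 36280.8 in D257A replicate 2, with the next D257A array at 23626.3. Ndufb10 of the ND4 module read 18972.4 in WT replicate 1, with the next WT array at 15531.3. Ndufv3 read 30044 in WT replicate 3, with the next WT array at 23990.8. The causes were not tested.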

How the results depend on the processing

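No subunit was called under 22 of the 23 alternatives. Under a rule like that of the design text (unadjusted p under 0.05, fold over 1.1) 2 were, Ndufa9 and Ndufs4, both lower, with 10.2% of all genes lower by that rule. The subunit median stayed positive in every setting, 0.09 to 0.27 when 1 array was left out; that of Ndufs and Ndufv genes ran from -0.115 to 0.107 and that of the others from 0.143 to 0.291. The 513 probe sets called over the whole table became 322 among the brightest 30 percent, 1217 with array weights, 1076 at an adjusted p of 0.1, 3809 under the unadjusted rule, and 168 to 574 when 1 array was left out. Replicate numbers did not pair the arrays (correlations of deviations -0.337 to 0.183); with the replicate block, 188 probe sets and no subunit were called.

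Of 736 subunit values under alternatives, 28 took the opposite sign, all of them uncalled. With arrays centred on the median these were Ndufa8 (-0.0519), Ndufb10 (-0.0567), Ndufv1 (-0.0449) and Ndufv3 (-0.0387), and with array weights Ndufb7 (-0.00776) and Ndufv3 (-0.046). Leaving out WT replicate 3 and D257A replicate 2 together turned Ndufa7 (0.0499), Ndufb9 (0.00384), Ndufv2 (0.00981) and Ndufv3 (-0.0545), and the mean over probe sets turned Ndufa7 (0.0704), Ndufb9 (0.0734) and Ndufv2 (0.242). When 1 array was left out, log2 fold changes ran from -0.24 to 0.0983 for Ndufa7, -0.0323 to 0.113 for Ndufa8, -0.131 to 0.0894 for Ndufb3, -0.017 to 0.219 for Ndufb5, -0.0754 to 0.109 for Ndufb10, -0.157 to 0.354 for Ndufv1, -0.134 to 0.0828 for Ndufv2 and -0.132 to 0.207 for Ndufv3. The causes were not tested.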
